A study of Mus musculus with 6 samples.

Results

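*Chil1* and 9 other genes that mark luminal progenitors or act in innate defence of the mammary epithelium were followed in sorted mammary epithelial cells with and without *Glis2*. The 10 genes, of 54418 in the deposited count table, were *Chil1*, *Lcn2*, *Ltf*, *Cd14*, *Plet1*, *Aldh1a3*, *Kit*, *Lbp*, *Pigr* and *Cxcl1*, and each was read from its own row in every library. *Chil1* and *Cxcl1* were chosen by their difference between the genotypes in these same libraries, so that difference is described here without a test. The other 8 genes were listed for their role. All 10 passed the filter on low counts.

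Total RNA was sequenced from 3 wild-type (WT, *Glis2*+/+) and 3 *Glis2* knockout (KO, *Glis2*-/-) females of 4 weeks on a C57BL/6 background, with 1 library per mouse. The deletion is germline, so that every cell of the KO animals carries it, epithelium and stroma alike. Glands were dissociated overnight with collagenase and hyaluronidase, and live cells were sorted with antibodies to TER-119, CD31, CD45, CD24 and CD49f, of which the first 3 mark red, endothelial and white blood cells and are commonly used to gate these out. The *Glis2* transcript was at 21.8, 23.2 and 19.6 CPM (counts scaled to library size, after TMM normalization) in WT and at 10.1, 17.0 and 16.3 CPM in KO cells, with a log2 fold change of -0.57 (SE 0.22, edgeR adjusted p = 0.906). As TPM, scaled also to transcript length and rescaled without *Gm23935*, it was at 19.5, 24.8 and 12.3 in WT and at 19.3, 19.2 and 19.1 in KO cells, without a lower mean. The transcript was thus present in the libraries labelled KO, and the genotype is taken from the labels.

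The luminal layer of the mammary duct holds mature, hormone-receptor-bearing cells and progenitors that lack these receptors. The progenitors are known for surface KIT, the aldehyde dehydrogenase ALDH1A3 and a set of secreted and membrane proteins that meet bacteria in the ductal lumen: iron-withholding proteins, lipopolysaccharide (LPS) sensors, an antibody transporter and chemokines that call neutrophils. Many of these genes also respond to NF-κB signalling during infection of the gland.

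Each library held between 24996524 and 31393917 estimated counts. Over the 21236 genes tested with edgeR's quasi-likelihood test, 0 genes (0%) reached both an adjusted p of 0.05 or less and a log2 fold change of 0.58 or more in either direction, while 1130 had an unadjusted p under 0.05. DESeq2 with apeglm shrinkage, the tools that the methods of the study name, gave 46 genes at the same thresholds, 36 higher and 10 lower in KO cells, and edgeR without the filter on low counts gave 40. The 8 luminal markers summed to between 3762 and 6180 CPM, the 10 basal markers to between 4683 and 7697 CPM and the 6 fibroblast markers to between 2293 and 7727 CPM. The sorted cells thus held luminal, basal and stromal RNA. The fibroblast sum was above the luminal sum in WT replicate 1 (7358 against 3762 CPM), WT replicate 3 (7727 against 4940) and KO replicate 3 (5885 against 3792). In the other libraries it was below. In such bulk libraries, fewer cells of a type cannot be told apart from less RNA per cell.

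Between the genotypes, the 10 genes did not share a direction. In the KO cells 4 of them were higher and 6 lower, with a median log2 fold change of -0.17, beside 0.01 over all genes tested. That median rested on single mice: it was 0.27 without WT replicate 2, 0.09 without KO replicate 3, 0.0043 without KO replicate 1, -0.60 without WT replicate 1 and -0.80 without KO replicate 2. Of the 8 genes listed for their role, 1 (*Lbp*) lay higher in each KO library than in each WT library, where 6.24% of all genes tested did. None of the 8 lay lower in each KO library, where 5.51% of all genes did, and the other 7 overlapped between the genotypes. *Chil1* lay higher and *Cxcl1* lower in each KO library, but both were chosen for their difference, so they are not read against those shares.

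**Figure D1:**
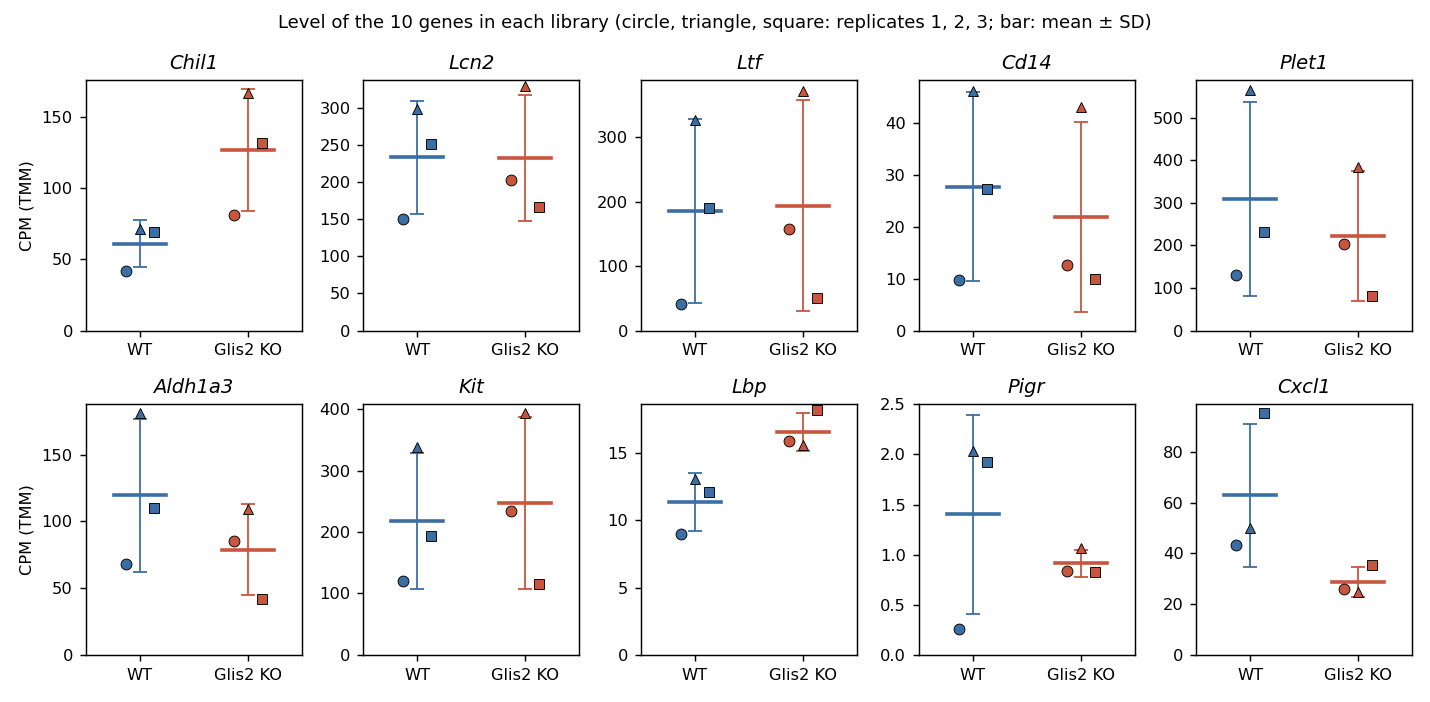
Level of each of the 10 genes in TMM-scaled CPM (vertical axis, starting at 0) in WT (blue) and *Glis2* KO (red) libraries, with circles, triangles and squares for replicates 1, 2 and 3 and bars for the mean ± SD of 3 mice. The genotypes separate for *Chil1*, *Lbp* and *Cxcl1*, and the triangle of replicate 2 is the highest point in both genotypes for the other 7 genes and *Chil1*.

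*Chil1* (ENSMUSG00000064246, chromosome 1, 134182176 to 134190181 of GRCm38, plus strand) encodes a secreted chitinase-like protein that binds chitin without cutting it. It was at 41.8, 71.5 and 69.2 CPM in the WT libraries and at 81.5, 167 and 132 CPM in the KO libraries. The lowest KO value stood above the highest WT value, and KO replicate 2 was the highest of the 6. The mean was 60.8 ± 16.5 CPM (SD, n = 3) in WT and 127 ± 42.9 CPM (SD, n = 3) in KO cells, a ratio of 2.08. Its log2 fold change was 1.06, with a standard error (SE) of 0.28. With each mouse left out in turn it lay between 0.81, without KO replicate 2, and 1.29, without KO replicate 1.

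The separation of *Chil1* was also present on scales set by luminal RNA. *Krt8* and *Krt18*, the keratins of luminal cells, had log2 fold changes of 0.02 (SE 0.19) and 0.08 (SE 0.26). As a share of their summed CPM, *Chil1* was at 2.12%, 2.21% and 2.74% in WT and at 3.05%, 5.01% and 6.74% in KO cells. Relative to 9 other luminal progenitor and alveolar genes it was also higher in each KO library, by 0.90 on the log2 scale. The basal markers lay in the same direction as *Chil1*. All 10 were higher in KO cells, with log2 fold changes between 0.13 and 0.60 and a smallest adjusted p of 0.849 in edgeR, and their sum was between 4683 and 6013 CPM in WT and between 6397 and 7697 CPM in KO libraries. Their part in the *Chil1* difference was not tested.

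Macrophages and neutrophils are also known to make CHIL1. The 11 macrophage markers summed to between 34.5 and 56.1 CPM in WT and between 46.9 and 98.6 CPM in KO libraries, highest in KO replicate 3. Of these markers, 8 of the 10 tested were higher in KO cells, among them *Ptprc*, which encodes CD45, at a log2 fold change of 1.25 (SE 0.39, edgeR adjusted p = 0.906). CD45 is a marker of leukocytes in general. The macrophage sum overlapped between the genotypes with *Ptprc* and also without it, a sum chosen after seeing the data. Without *Ptprc* it was 45.1, 26.5 and 42.3 CPM in WT and 40.2, 32.4 and 59.9 CPM in KO libraries. Of the 9 markers then tested, 7 were higher and 2 lower in KO cells. *Adgre1*, which encodes the macrophage marker F4/80, had the opposite sign to *Ptprc* at -1.56 (SE 0.66, edgeR adjusted p = 0.906), with overlap between the genotypes. *Cd68* was at -0.19 (SE 0.44), and these 2 were the tested markers lower in KO cells. *Ptprc* and *C1qa* were higher in each KO library than in each WT library, an order that 6.24% of all genes tested had. For *C1qa* the log2 fold change was 1.02 (SE 0.67, edgeR adjusted p = 0.94). Its levels were 1.52, 0.245 and 1.42 CPM in WT and 1.68, 1.87 and 2.94 CPM in KO libraries. The 11 neutrophil markers summed to at most 3.53 CPM in any library, and *Mpo*, *Camp* and *Retnlg* had 0 counts throughout. *Ly6g* reached at most 1 count. Lymphocyte markers were few but separated the genotypes, with a sum between 3.08 and 7.03 CPM in WT and between 12.2 and 19.2 CPM in KO libraries. CD45 was among the antibodies of the sort, and a gate against it serves to remove leukocytes. What part the macrophage or lymphocyte RNA had in any difference was not tested.

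The relatives of *Chil1* in the chitinase family did not share its pattern. Of 8 other family genes only *Chid1* and *Ctbs* passed the filter, both active in degradation or binding of chitin-like glycans, with log2 fold changes of -0.01 and -0.04 (edgeR adjusted p = 0.998 and 0.993). The remaining 6, *Chil3*, *Chil4*, *Chil5*, *Chil6*, *Chia1* and *Chit1*, were near 0, the highest value being 0.601 CPM for *Chil5* in KO replicate 2. Among the chitinase-like (Chil) genes, *Chil1* was thus the one above 1 CPM. Of the receptors described for CHIL1, *Tmem219* had a log2 fold change of 0.57 (SE 0.34, edgeR adjusted p = 0.932) and *Il13ra2* one of 0.26 (SE 0.87) on less than 2 CPM in every library.

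Among 9461 other protein-coding genes with a mean of at least 10 CPM, those whose centred log2 CPM over the 6 libraries lay nearest to *Chil1* were *Grik3*, *Ccn2*, *Ntn4*, *Zfp444* and *Fam20a*, with root mean square distances of 0.29 to 0.33. *Grik3*, a kainate receptor subunit, was at 47.1, 72.8 and 66.2 CPM in WT and at 92.2, 106 and 106 CPM in KO cells. *Ntn4*, a netrin of basement membranes, was at 29.8, 40.6 and 26.6 CPM in WT and at 50.2, 80.8 and 53.8 CPM in KO cells. *Ccn2*, a matrix-associated growth regulator, came as near but overlapped between the genotypes. This likeness was found by searching all genes and is only a description.

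*Cxcl1* (ENSMUSG00000029380, chromosome 5, 90891241 to 90893115 of GRCm38, plus strand) encodes a chemokine that attracts neutrophils through the receptor CXCR2. It was at 43.5, 50.0 and 95.3 CPM in WT and at 25.8, 24.9 and 35.6 CPM in KO libraries. The genotypes did not overlap, and WT replicate 3 lay far above the other WT mice. The mean was 62.9 ± 28.2 CPM (SD, n = 3) in WT and 28.8 ± 5.92 CPM (SD, n = 3) in KO cells, a ratio of 0.457, with a log2 fold change of -1.13 (SE 0.29). Without WT replicate 3 it was -0.70. As a share of *Krt8* and *Krt18* the mean log2 difference was -1.09, but the genotypes then overlapped, with 1.54% in WT replicate 2 and 1.82% in KO replicate 3.

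Among the other chemokines of the same ELR CXC class, *Cxcl2* was lower and *Cxcl15* higher in KO cells. *Cxcl2*, the near relative beside *Cxcl1* on chromosome 5, was at 4.38, 4.20 and 8.79 CPM in WT and at 1.56, 1.44 and 3.13 CPM in KO libraries, again highest in replicate 3 of both genotypes. Its log2 fold change was -1.50 (SE 0.45, edgeR adjusted p = 0.906). *Cxcl15* was at 7.68, 12.4 and 12.2 CPM in WT and at 27.9, 30.2 and 14.1 CPM in KO cells, with a log2 fold change of 1.16 (SE 0.32, edgeR adjusted p = 0.906). *Cxcl3*, *Cxcl5* and *Ppbp* did not pass the filter. The receptor *Cxcr2* stayed under 1 CPM in every library and *Cxcr1* had 0 counts.

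Because *Cxcl1* and *Cxcl2* lay lower together while *Chil1* lay higher, their promoters were compared for matches to the κB consensus, the binding sequence of NF-κB, on both strands of the 250 bases before the RefSeq start. Entries were found for 7 of the 10 genes, and not for *Cd14*, *Aldh1a3* and *Lbp*. A match was held by 7.25% of 32851 mouse promoters, and among the 7 genes by *Chil1* and *Cxcl1*. The windows below are RefSeq sequence of GRCm38.p6 on the plus strand, 5′ to 3′, with the κB match in capitals. They are chr1:134181956-134182105 for *Chil1*, with the match at -179 to -170 from the start, chr5:90891125-90891233 for *Cxcl1*, with overlapping matches at -71 to -61, and chr5:90903753-90903861 for *Cxcl2*, with overlapping matches at -97 to -87.
Chil1: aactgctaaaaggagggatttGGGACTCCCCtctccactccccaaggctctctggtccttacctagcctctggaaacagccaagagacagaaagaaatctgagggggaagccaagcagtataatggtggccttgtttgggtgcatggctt
Cxcl1: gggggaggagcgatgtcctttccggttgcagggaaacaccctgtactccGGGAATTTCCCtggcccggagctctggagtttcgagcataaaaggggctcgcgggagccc
Cxcl2: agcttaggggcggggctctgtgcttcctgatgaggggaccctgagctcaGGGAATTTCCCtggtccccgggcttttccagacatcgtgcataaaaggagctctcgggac
The matched bases of *Cxcl1* and *Cxcl2* were identical and lay within a shared run of 14 bases, while the 109-base windows were identical at 43.1% of positions without gaps. A κB match thus stood before genes that differed in both directions. As *Chil1* and *Cxcl1* were chosen by their difference, this is only a description. The GLI-type motif GACCACCCA, held by 0.225% of promoters, had no match in the 7 genes, which says only that these letters are not in these windows.

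The wider NF-κB programme was mixed. Of 18 feedback and target genes of NF-κB, 16 were tested, with 8 higher and 8 lower in KO cells and a median log2 fold change of -0.0036. The cytokines *Csf3* and *Il6* were lower at -0.91 (SE 0.41, edgeR adjusted p = 0.906) and -0.89 (SE 0.69, edgeR adjusted p = 0.941). *Icam1*, an adhesion receptor for leukocytes, was at 42.4, 29.6 and 40.6 CPM in WT and at 49.8, 51.7 and 65.4 CPM in KO cells, the opposite order, with a log2 fold change of 0.57 (edgeR adjusted p = 0.906). *Tnfaip3*, which encodes the feedback inhibitor A20, had a log2 fold change of 0.28 (SE 0.32).

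Chemokine and immediate early genes are known to respond to tissue dissociation. Of 9 such response genes, 8 were higher and 1 lower in KO cells, with a median log2 fold change of 0.24. *Jun* had a log2 fold change of 0.53 (SE 0.14, edgeR adjusted p = 0.906) and *Fos* one of 0.41 (SE 0.17, edgeR adjusted p = 0.906), both transcription factor subunits of AP-1, while *Nr4a1* was at -0.03. Most of these genes were higher in KO cells, where *Cxcl1* was lower. Stromal cells are a known source of CXCL1 as well. Of the fibroblast markers 5 of 6 were lower in KO cells, with a median log2 fold change of -0.39, and of the adipocyte markers 4 of 4, with a median of -0.74, among them *Adipoq* at -2.16 (SE 1.07, edgeR adjusted p = 0.907) and *Plin1* at -1.37 (SE 0.46, edgeR adjusted p = 0.906). The summed levels overlapped, the adipocyte sum being 308, 52.3 and 207 CPM in WT and 161, 92.5 and 263 CPM in KO libraries. Most of that sum was *Fabp4*, at 294, 46.3 and 188 CPM in WT and 157, 89 and 256 CPM in KO libraries. *Adipoq*, alone of the 4 adipocyte markers, was lower in each KO library, at 1.85, 1.29 and 4.07 CPM in WT and 1.04, 0 and 0.575 CPM in KO libraries. The part of the dissociation response or of stromal RNA in the difference of *Cxcl1* was not tested.

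The genes with the nearest pattern to *Cxcl1* were *Gm47283*, *Sytl2*, *Hsph1*, *Tppp3* and *Mid1*, at distances of 0.26 to 0.32 on the log2 scale. *Mid1*, a microtubule-associated ubiquitin ligase, was at 83.5, 99.0 and 122 CPM in WT and at 61.1, 61.4 and 57.1 CPM in KO cells. *Hsph1*, a heat shock chaperone, was at 85.6, 74.6 and 153 CPM in WT and at 57.5, 65.0 and 77.6 CPM in KO cells, and so overlapped. Like *Cxcl1*, *Hsph1* was highest in replicate 3 of each genotype.

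**Figure D2:**
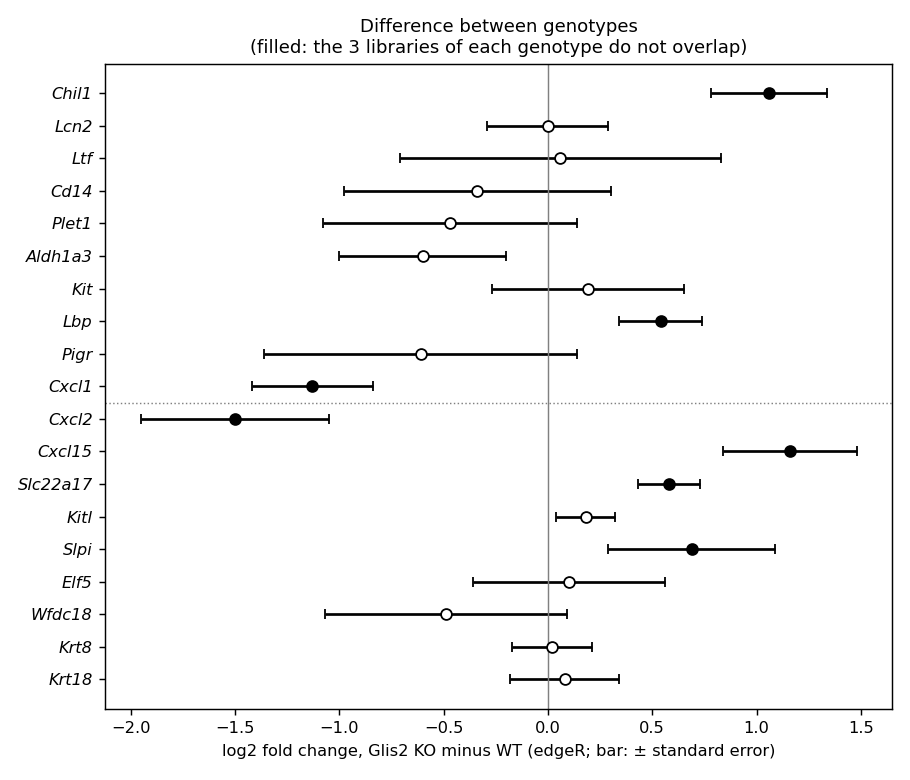
Log2 fold change of KO over WT cells from edgeR (horizontal axis, bars: standard error), with the 10 genes above the dotted line and related genes below it, and filled points where the libraries of the genotypes did not overlap. *Chil1* at 1.06 and *Cxcl1* at -1.13 lie farthest from 0 among the 10 genes, and *Cxcl2* at -1.50 and *Cxcl15* at 1.16 lie on opposite sides of 0.

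*Lbp* (ENSMUSG00000016024, chromosome 2, 158306493 to 158332852 of GRCm38, plus strand) encodes the LPS-binding protein, which hands bacterial LPS to CD14. It was at 8.98, 13.1 and 12.1 CPM in WT and at 15.9, 15.6 and 18.2 CPM in KO libraries. All KO mice lay above all WT mice, with the narrowest ratio of highest to lowest library of the 10 genes in each genotype, 1.45 in WT and 1.17 in KO cells. The log2 fold change was 0.54 (SE 0.20), which did not pass the test over all genes (edgeR adjusted p = 0.906). The separation was not seen on either of these other scales: as a share of *Krt8* and *Krt18*, and as TPM (the deposited measure, scaled to transcript length and library size), 1 KO library fell within the WT range.

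*Cd14* (ENSMUSG00000051439) encodes the co-receptor that takes LPS from LBP. It was at 9.69, 46.1 and 27.2 CPM in WT and at 12.7, 42.9 and 9.97 CPM in KO libraries, and the genotypes overlapped over almost their whole range. Its log2 fold change was -0.34 (SE 0.64, edgeR adjusted p = 0.977), between -1.30 without KO replicate 2 and 0.25 without WT replicate 2. The rest of the LPS receptor pathway was spread around 0, with 5 of 10 genes higher and 5 lower in KO cells and a median log2 fold change of 0.01. The receptor *Tlr4* had a log2 fold change of -0.09 (SE 0.30) and its partner *Ly96* one of 0.02 (SE 0.46). The farthest from 0 were the kinase *Irak2* at 0.41 (SE 0.27, edgeR adjusted p = 0.941) and the receptor *Tlr2* at -0.23 (SE 0.30, edgeR adjusted p = 0.973).

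The transcripts of the iron-withholding proteins differed in mean level between the genotypes by less than the spread between mice. *Lcn2* (ENSMUSG00000026822, chromosome 2, 32384633 to 32388252, minus strand) encodes lipocalin 2, which binds bacterial siderophores. It was at 150, 298 and 252 CPM in WT and at 203, 329 and 167 CPM in KO cells. Means were 233 ± 75.5 and 233 ± 85.1 CPM (SD, n = 3 each), with a log2 fold change of -0.0013 (SE 0.29, edgeR adjusted p = 1). Of the 10 genes it had the value nearest to 0.

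*Ltf* (ENSMUSG00000032496, chromosome 9, 111019271 to 111042767, plus strand) encodes lactoferrin, which binds free iron in milk and mucosal fluid. It was at 41.4, 326 and 190 CPM in WT and at 158, 372 and 50.7 CPM in KO cells. The spread between mice was the widest of the 10 genes: the highest WT library held 7.87 times the lowest, and the highest KO library 7.34 times the lowest. Its log2 fold change of 0.06 had a standard error of 0.77 (edgeR adjusted p = 0.998) and lay between -0.85 without KO replicate 2 and 0.74 without WT replicate 2, so that a difference of the size seen for *Chil1* was not detectable for this gene.

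Lipocalin 2 acts through the receptors SLC22A17 and megalin, and lactoferrin binds LRP1. *Slc22a17* was at 19.4, 21.8 and 22.4 CPM in WT and at 35.5, 30.8 and 28.8 CPM in KO libraries, without overlap, with a log2 fold change of 0.58 (SE 0.15, edgeR adjusted p = 0.906). *Lrp2*, which encodes megalin, was under 2.5 CPM in every library, with a log2 fold change of -0.69 (SE 0.67). *Lrp1* was abundant, between 363 and 551 CPM, with a log2 fold change of 0.19 (SE 0.14). Of the 9 ligands and receptors followed, 7 were tested, 5 higher and 2 lower in KO cells, with a median log2 fold change of 0.19.

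*Kit* (ENSMUSG00000005672, chromosome 5, 75574916 to 75656722, plus strand) encodes the receptor tyrosine kinase that marks luminal progenitors. It was at 121, 339 and 193 CPM in WT and at 235, 394 and 115 CPM in KO cells, with a log2 fold change of 0.19 (SE 0.46, edgeR adjusted p = 0.981) that lay between -0.32 without KO replicate 2 and 0.66 without WT replicate 2. The genotypes overlapped, and the lowest value of all was that of KO replicate 3. *Kitl*, its ligand, was at 132, 194 and 172 CPM in WT and at 187, 201 and 174 CPM in KO cells, with a log2 fold change of 0.18 (SE 0.14).

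*Aldh1a3* (ENSMUSG00000015134, chromosome 7, 66390890 to 66427517, minus strand) encodes the enzyme that oxidizes retinaldehyde to retinoic acid. It was at 67.8, 181 and 110 CPM in WT and at 85.3, 109 and 42.0 CPM in KO cells. The genotypes overlapped, and the log2 fold change was -0.60 (SE 0.40, edgeR adjusted p = 0.941), or -0.17 without WT replicate 2. Measured against the luminal keratins the order became clear of overlap: *Aldh1a3* was at 3.43%, 5.60% and 4.34% of *Krt8* and *Krt18* in WT and at 3.19%, 3.28% and 2.15% in KO cells. With the keratin level as a covariate in edgeR, an alternative chosen after seeing the data, the log2 fold change was -0.66 with an adjusted p of 0.0592, which misses the threshold.

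**Figure D3:**
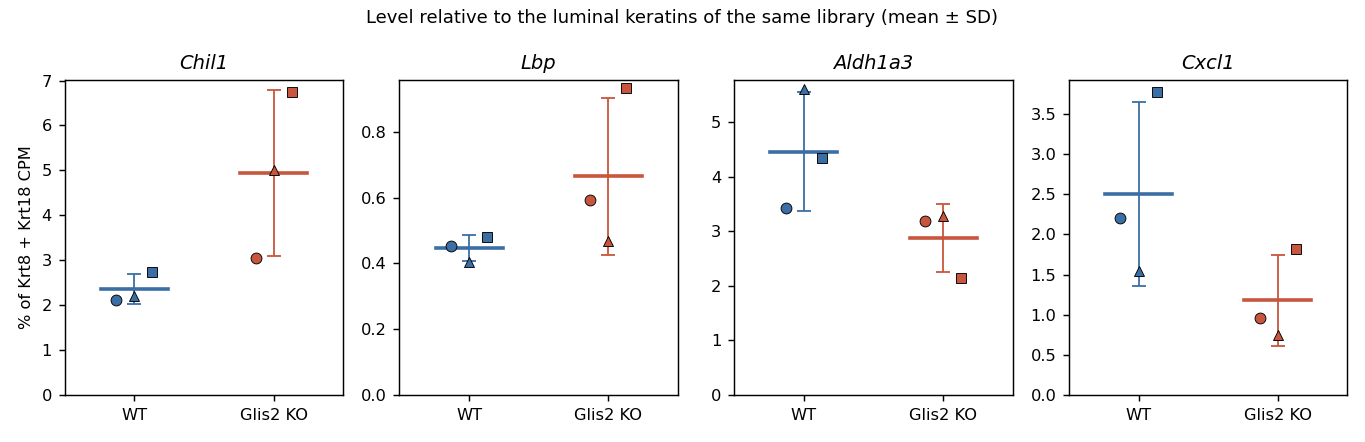
CPM of 4 genes as a percentage of the summed CPM of *Krt8* and *Krt18* in the same library (vertical axes from 0), by genotype, with circles, triangles and squares for replicates 1, 2 and 3 and bars for the mean ± SD of 3 mice. *Chil1* stays higher in every KO library, *Aldh1a3* becomes lower in every KO library, and *Lbp* and *Cxcl1* overlap.

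The other genes of retinoic acid synthesis and response were mixed. Of 12 listed, 10 were tested, 6 higher and 4 lower in KO cells, with a median log2 fold change of 0.04. The retinaldehyde reductase *Dhrs3* was at 38.3, 38.8 and 41.7 CPM in WT and at 56.2, 45.7 and 51.1 CPM in KO cells, with a log2 fold change of 0.36 (SE 0.12, edgeR adjusted p = 0.906). *Rarb*, a retinoic acid receptor that is itself a retinoic acid target, had a log2 fold change of 0.66 (SE 0.42, edgeR adjusted p = 0.94). The receptor *Rara* at -0.03 and the retinoic acid hydroxylase *Cyp26b1* at -0.10 lay near 0. The farthest from 0 was *Crabp1*, a cellular retinoic acid binding protein of low level, named after its values were seen, at 0.681, 0.665 and 1.19 CPM in WT and at 0, 0.167 and 0.415 CPM in KO libraries. It was lower in every KO library, the 1 tested gene of the list to be so, with a log2 fold change of -2.07 (SE 1.10, edgeR adjusted p = 0.919).

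*Plet1* (ENSMUSG00000032068, chromosome 9, 50494525 to 50505482, plus strand) encodes a surface protein of epithelial progenitors. It was at 131, 564 and 231 CPM in WT and at 204, 384 and 80.5 CPM in KO cells. Replicate 2 was the highest in both genotypes, and the highest library held 4.31 times the lowest in WT and 4.76 times in KO cells. The log2 fold change was -0.47 (SE 0.61, edgeR adjusted p = 0.972), and with 1 mouse left out it lay between -1.13, without KO replicate 2, and 0.30, without WT replicate 2.

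*Pigr* (ENSMUSG00000026417, chromosome 1, 130826684 to 130852249, plus strand) encodes the polymeric immunoglobulin receptor, which carries antibody across the epithelium into milk. With 8, 58 and 50 counts in WT and 21, 32 and 26 counts in KO libraries it was close to the lower limit of this depth. The log2 fold change was -0.61 (SE 0.75, edgeR adjusted p = 0.968), and the 8 counts of WT replicate 1 were the lowest. It was -1.13 without WT replicate 1, -0.25 without WT replicate 2 and -0.32 without WT replicate 3, and -0.26 with the replicate number as a block. *Jchain*, which encodes the joining chain that PIGR recognizes, did not pass the filter and had at most 0.665 CPM in any library.

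The most regular feature of the progenitor genes was variation between mice within a genotype. In 8 of the 10 genes, all but *Lbp* and *Cxcl1*, replicate 2 was the highest library of both genotypes, where 16% of all genes tested had that order. WT replicate 1 was the lowest WT library for all 10 genes, and KO replicate 3 the lowest KO library for *Lcn2*, *Ltf*, *Plet1*, *Aldh1a3*, *Kit*, *Cd14* and *Pigr*. The genes just named had replicate 2 highest and WT replicate 1 and KO replicate 3 lowest, an order that 6.39% of all genes tested had. The share of all genes with WT replicate 1 lowest was not computed. On the log2 scale *Ltf* deviated from its own mean by 1.21 in WT replicate 2 and 1.41 in KO replicate 2, and by -1.76 in WT replicate 1 and -1.47 in KO replicate 3. The numbers are not stated to pair the mice, and over all genes the deviations of same-numbered mice correlated by only -0.02 to 0.17.

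Most luminal progenitor genes outside the 10 also had their highest value in replicate 2. Of 9 listed, 7 were highest in replicate 2 of both genotypes, and 5 were higher and 4 lower in KO cells, with a median log2 fold change of 0.05. *Elf5*, the transcription factor of the alveolar and progenitor lineage, was at 31.7, 81.7 and 39.1 CPM in WT and at 54.2, 84.9 and 24.6 CPM in KO cells. *Wfdc18*, a secreted protein of the WAP domain class, was at 79.3, 339 and 161 CPM in WT and at 130, 230 and 54.0 CPM in KO cells, with a log2 fold change of -0.49 (SE 0.58, edgeR adjusted p = 0.966). *Mfge8*, a milk fat globule protein, was the exception that separated the genotypes, at 0.34 (SE 0.12, edgeR adjusted p = 0.906).

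The stromal markers had the reverse order. All 5 endothelial markers and 5 of 6 fibroblast markers were lowest in replicate 2 of both genotypes, the order that 16.8% of all genes had. The endothelial sum was 603, 112 and 426 CPM in WT and 382, 173 and 620 CPM in KO libraries. Pan-luminal markers followed the progenitor genes over a narrower range, with sums of 3762, 6180 and 4940 CPM in WT and 5227, 6178 and 3792 CPM in KO libraries. The dissociation response genes shared the order too, 7 of 9 being highest in replicate 2 of both genotypes, with sums of 9766, 11234 and 10020 CPM in WT and 12330, 14807 and 10285 CPM in KO libraries. Among the 10 mature luminal markers tested, 0 were highest in replicate 2 of both genotypes. Their list summed to 1324, 2022 and 2201 CPM in WT and 2173, 2313 and 1251 CPM in KO libraries. The part that cell composition or the response to dissociation had in the spread of the progenitor genes was not tested.

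**Figure D4:**
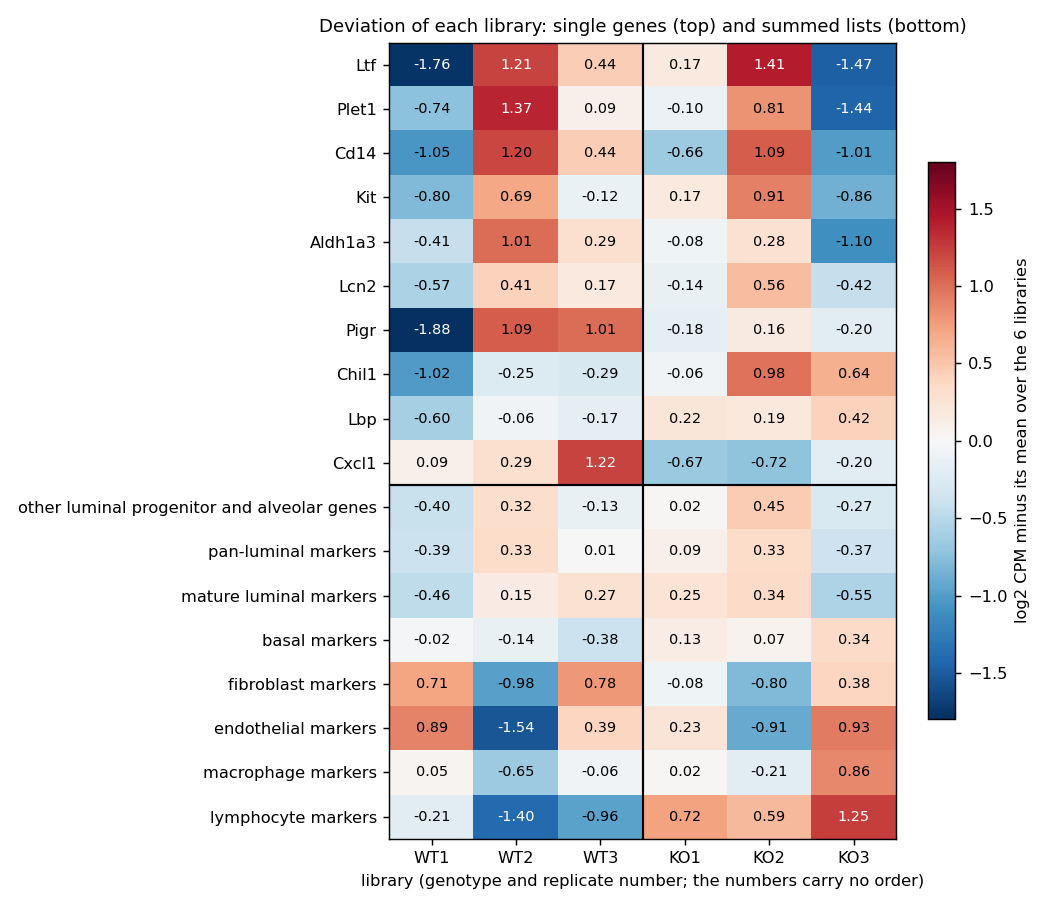
Log2 CPM minus its mean over the 6 libraries (colour and printed number) for the 10 genes (upper rows) and for the summed CPM of marker lists (lower rows), by library. *Ltf*, *Plet1*, *Cd14*, *Kit*, *Aldh1a3* and *Lcn2* are above their mean in WT2 and KO2 and below it in WT1 and KO3, while the endothelial and fibroblast sums are below theirs in WT2 and KO2.

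Of the 7 genes lowest in WT replicate 1 and KO replicate 3, 5 had a promoter entry, and *Lcn2*, *Ltf* and *Plet1* held a match to the C/EBP-type motif TTGCNNAA, shown here in capitals. The match reads on the strand of the gene for *Lcn2* and on the opposite strand for *Ltf* and *Plet1*. The motif was searched on both strands of the 250 bases before the RefSeq start and is held by 9.56% of all promoters. The windows are RefSeq sequence of GRCm38.p6, 5′ to 3′ on the strand of the gene: chr2:32387937-32387966 on the minus strand for *Lcn2*, and chr9:111019206-111019235 and chr9:50494316-50494345 on the plus strand for *Ltf* and *Plet1*. The RefSeq start of *Lcn2* lies 513 bases inside the gene as Ensembl bounds it above, so that its window is within those bounds and before the RefSeq start only.
Lcn2: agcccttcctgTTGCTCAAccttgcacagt
Ltf: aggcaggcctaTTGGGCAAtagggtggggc
Plet1: cagaactcttcTTGAGCAAaactggaattg
The matches began at -216, -75 and -198 from the start, at no common distance. *Plet1* also held the AP-1 motif TGANTCA, found in 6.75% of promoters, and *Kit* and *Pigr* held none of the motifs searched. A match describes the letters and does not show that a factor binds there.

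Other defence genes outside the 10 were mixed. Of 14 listed, 8 passed the filter, 5 higher and 3 lower in KO cells, with a median log2 fold change of 0.22. *Slpi*, an antimicrobial protease inhibitor, was at 6.81, 24.6 and 21.4 CPM in WT and at 25.3, 33.6 and 26.3 CPM in KO libraries, without overlap, with a log2 fold change of 0.69 (SE 0.40, edgeR adjusted p = 0.93). *Cfb*, complement factor B, was at 0.55 (SE 0.66, edgeR adjusted p = 0.966), the peptidoglycan recognition protein *Pglyrp1* at -0.27 (SE 0.41) and the ferroxidase *Cp* at -0.15 (SE 0.35). The acute phase genes *Saa1*, *Saa2* and *Saa3* were under 1 CPM in every library.

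Levels of different genes were compared per transcript length, as TPM values rescaled after leaving out *Gm23935*, which held 83.0% to 85.7% of the TPM. In WT cells the order of means was *Lcn2* at 455, *Plet1* at 448, *Ltf* at 263, *Cxcl1* at 105, *Kit* at 94.7, *Aldh1a3* at 90.6, *Chil1* at 68.6, *Cd14* at 29.3, *Lbp* at 8.86 and *Pigr* at 0.537 rescaled TPM. *Lcn2*, *Plet1* and *Ltf* overlapped with one another across libraries, as did *Cxcl1*, *Kit*, *Aldh1a3* and *Chil1*, whereas *Cd14*, *Lbp* and *Pigr* each stood apart from the gene ranked just above. The lowest *Ltf* library, at 38.3 rescaled TPM, lay below all libraries of that middle group.

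In KO cells *Chil1* took the fourth place instead of the seventh, and *Cxcl1* the seventh instead of the fourth. *Chil1* was at 87.8, 170 and 130 rescaled TPM in the KO libraries, above *Kit* at 88.5, 148 and 53.4 by its mean but with ranges that overlapped. *Cxcl1* was at 39.5, 40.0 and 55.8 rescaled TPM in KO cells, a range that overlapped with *Cd14* at 12.6, 42.2 and 9.73 and with *Aldh1a3* at 55.9, 78.9 and 38.5. The WT libraries had placed *Cxcl1* above every *Cd14* value, at 73.3 or more against 47.7 or less.

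**Figure D5:**
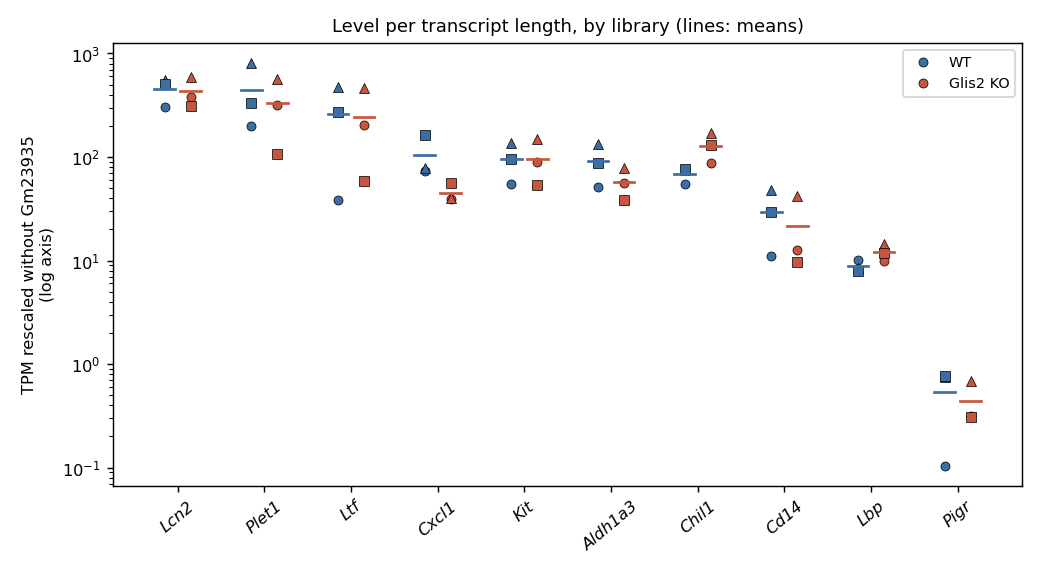
TPM rescaled without *Gm23935* (log axis) of the 10 genes, ordered by their WT mean, in WT (blue) and *Glis2* KO (red) libraries, with circles, triangles and squares for replicates 1, 2 and 3 and lines for the means. *Lcn2* has the highest WT mean at 455 and *Pigr* the lowest at 0.537, and the means of *Chil1* and *Cxcl1* cross between the genotypes.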

How the data were processed

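RNA-seq libraries of sorted mammary epithelial cells from 3 WT and 3 KO mice were analysed. The authors estimated counts with Salmon 1.2.1 (submitters' processing notes) on an mm10 transcriptome and summed them per gene with tximport. The estimated counts were deposited as whole numbers without normalization, and the authors deposited TPM as log2 values with an offset of 1. Reads shared between near-identical or overlapping genes depend on that estimation.

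Counts were filtered with filterByExpr, scaled by TMM and tested with edgeR 4.0.16 (R 4.3.3) without a replicate block, with p adjusted over all 21236 genes. A call needed an adjusted p of 0.05 or less with a log2 fold change of 0.58 or more either way. The common biological coefficient of variation was 37.4%, and no library was a copy of another (smallest chi-square 20.8 per degree of freedom). Functions were tested on simulated data. Levels used TPM rescaled without *Gm23935*, annotated as a microRNA gene, with 3.09% to 3.92% of counts.

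The genes and lists were chosen with earlier results of these data known. Named were the 10 genes, *Glis2*, ligands and receptors of the 10, up to 2 genes per direction and list with the largest change and a mean of at least 1 CPM, list genes with an adjusted p of at most 0.05, the 5 nearest patterns to *Chil1* and *Cxcl1*, and defining markers. *Tlr4*, *Ly96*, *Elf5* and genes of lists that did not pass the filter were named after their values were seen. Alternatives were DESeq2 1.42.0 with apeglm 1.24.0, its size factors in edgeR, 2 other filters, a replicate block, limma 3.58.1 on log2 TPM with offsets of 1 and 0.1, leaving out each mouse, and values relative to *Krt8* and *Krt18*. Values relative to other luminal progenitor genes and a keratin covariate were added after seeing the data.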

Additional observations from a re-analysis of the deposited data

How the results depend on the processing

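The count of 0 genes called stayed 0 with DESeq2 size factors, at least 10 counts in every sample, the replicate block, log2(TPM + 1) and each mouse left out, and became 46 with DESeq2 and apeglm (the study's stated tools), 40 without a filter on low counts, 1 with log2(TPM + 0.1) in limma and 10 with the keratin covariate. The cause was not tested. The replicate numbers share no stated batch, the deviations of same-numbered mice correlated by -0.02, 0.17 and 0.02, and the replicate block gave a median of -0.13 over the 10 genes.

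*Chil1* (0.73 to 1.29), *Cxcl1* (-1.35 to -0.70), *Lbp* (0.20 to 0.65) and *Aldh1a3* (-0.92 to -0.17) kept their direction in all 16 alternatives and *Pigr* (-1.13 to -0.03) in 15. The DESeq2 values in these ranges are log2 fold changes before apeglm shrinkage, which entered only the count of genes called. No adjusted p of the 8 tested genes passed in these alternatives, the lowest being 0.0592 for *Aldh1a3* and 0.0597 for *Plet1* with the keratin covariate. Direction turned for *Ltf*, at -0.06 with log2(TPM + 1), -0.04 with log2(TPM + 0.1), -0.11 with the keratin covariate and -0.06 relative to other luminal progenitor genes, and for *Kit*, at -0.09 and -0.10 with the TPM offsets of 1 and 0.1. With each mouse left out, log2 fold changes ranged from -0.34 to 0.21 for *Lcn2*, from -0.85 to 0.74 for *Ltf*, from -1.30 to 0.25 for *Cd14*, from -1.13 to 0.30 for *Plet1* and from -0.32 to 0.66 for *Kit*. *Cd14* and *Plet1* turned without WT replicate 2 (0.25 and 0.30). The median of the 10 genes then ranged from -0.80 to 0.27, and turned without WT replicate 2 (0.27), KO replicate 1 (0.0043) or KO replicate 3 (0.09). At least 10 counts in every sample gave no median over all 10, since *Pigr* dropped out.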
